A study of Mus musculus with 6 samples.

Results

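Distal nephron and collecting duct genes were followed in RNA-seq libraries of isolated mouse glomeruli from an α-parvin knockout study. The set held 30 genes, given as a list of mouse symbols and matched through NCBI Gene identifiers, out of 27179 features in the table. All 30 had a mean of at least 10 normalised counts over the 6 libraries, the level above which 13946 genes were tested. The members were sorted into the thick ascending limb (6 genes), the distal convoluted and connecting tubule (8 genes), principal cells (10 genes) and intercalated cells (6 genes). The lowest members were Aqp4, with a mean of 44.9 normalised counts, and Cldn16, with 51.1, so none lay close to the limit and none was lost to it. Normalised counts are reads per gene divided by a size factor that evens out library depth.

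The 3 knockout (KO) mice carried Parva-fl/fl with a Cre transgene under a promoter known for its activity in podocytes, where the recombinase removes the floxed Parva alleles, which encode the focal adhesion protein α-parvin. The 3 control (WT) mice carried the floxed alleles, Parva-fl/fl, without Cre. All were males of 9 weeks on a mixed C57BL/6 background, and the protocol describes mild proteinuria without assigning it to a genotype. Glomeruli had been collected after perfusion with magnetic beads, and whole glomerular RNA was sequenced.

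The nephron segments from the thick ascending limb of the loop of Henle onward set the final salt, water and acid content of urine. This limb reabsorbs sodium chloride without water and makes uromodulin, the distal convoluted tubule reabsorbs sodium chloride through the thiazide-sensitive cotransporter, and the connecting tubule reabsorbs calcium. In the collecting duct, principal cells take up sodium through the epithelial sodium channel and water through aquaporins under aldosterone and vasopressin, while intercalated cells secrete acid or base through a proton ATPase and anion exchangers. None of these cells belongs to the glomerular tuft, and the Cre transgene is aimed at podocytes. The libraries are whole glomerular RNA, and which cells gave the reads of the members was not measured.

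To show the start regions of 1 gene of each segment, the 250 bases upstream of the transcription start are given for Umod, Slc12a3, Aqp3 and Atp6v1b1. RefSeq promoter windows of build GRCm38.p6 matched 20 of the 30 members. Entries were missing for Sostdc1, Fxyd2, Aqp4, Slc4a1, Cldn8, Calb1, Scnn1a, Ppp1r1a, Atp6v0d2 and Hsd11b2. The windows lie at chr7:119479263-119479512 on the minus strand for Umod, chr8:94328958-94329207 on the plus strand for Slc12a3, chr4:41098184-41098433 on the minus strand for Aqp3, and chr6:83742767-83743016 on the plus strand for Atp6v1b1. They are written 5′ to 3′ along the gene, ending at the base before the start. Capitals mark GTTAAT, a half-site read by HNF1 factors (Umod), TATAAA, the TATA box core (Slc12a3 and Aqp3), and TGTTTA, a core read by forkhead factors such as Foxi1 (Atp6v1b1).
Umod: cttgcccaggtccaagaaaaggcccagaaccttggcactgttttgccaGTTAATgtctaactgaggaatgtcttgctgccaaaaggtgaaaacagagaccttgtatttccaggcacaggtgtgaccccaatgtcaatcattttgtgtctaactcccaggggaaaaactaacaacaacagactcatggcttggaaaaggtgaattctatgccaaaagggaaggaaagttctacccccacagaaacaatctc
Slc12a3: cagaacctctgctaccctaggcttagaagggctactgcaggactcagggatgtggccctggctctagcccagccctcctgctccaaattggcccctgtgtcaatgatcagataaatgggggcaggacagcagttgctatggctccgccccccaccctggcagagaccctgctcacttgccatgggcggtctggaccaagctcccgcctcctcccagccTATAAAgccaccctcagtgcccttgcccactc
Aqp3: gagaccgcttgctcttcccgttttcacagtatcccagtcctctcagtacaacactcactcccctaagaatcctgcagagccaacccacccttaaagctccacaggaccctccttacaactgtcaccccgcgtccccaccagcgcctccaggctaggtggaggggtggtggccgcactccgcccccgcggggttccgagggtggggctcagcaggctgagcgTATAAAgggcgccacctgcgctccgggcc
Atp6v1b1: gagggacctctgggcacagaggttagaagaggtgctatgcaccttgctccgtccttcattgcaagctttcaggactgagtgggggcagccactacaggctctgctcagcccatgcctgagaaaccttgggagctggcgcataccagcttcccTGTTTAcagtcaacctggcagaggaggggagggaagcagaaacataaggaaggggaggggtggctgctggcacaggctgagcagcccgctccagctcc

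GTTAAT and TGTTTA were searched on both strands and TATAAA on the strand of the gene, in the 250 upstream bases, and no member held more than 1 of these motifs, so none overlapped. GTTAAT began 202 bases before the start of Umod and was also found in Cldn10 and Atp6v1g3, 3 of the 20 members, against 6.43% of 32851 windows of the same length. TATAAA began 32 bases before the start of Slc12a3 and 29 before that of Aqp3, with further matches in Slc26a4 and Trpv5, 4 of 20 against 7.59% of windows. TGTTTA began 98 bases before the start of Atp6v1b1 and was found also in Slc12a1 and Avpr2, 3 of 20 against 12% of windows. The matches describe the letters of these windows, and no binding was measured.

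All 30 members had a higher mean in the KO libraries than in the WT libraries, against 49.7% of all tested genes. The difference passed the test for 5 of them, at a limma adjusted p below 0.05 over all tested genes: Fxyd2, a regulatory subunit of Na,K-ATPase, Cldn10, a claudin gene sorted here into the thick limb, Aqp3, the basolateral water channel of principal cells, Fxyd4, a collecting duct Na,K-ATPase regulator, and Scnn1b, the β subunit of the epithelial sodium channel. Over all tested genes 13.5% rose and 8.58% fell by the same rule, so the limma count of 5 of 30 lies near the background. The members varied together from library to library, as given below, so their shared direction is not 30 separate results. All 24 proximal tubule markers were also higher in mean in KO. None of the members fell at the adjusted or the unadjusted threshold in limma, and none was called lower by edgeR or DESeq2. Log2 differences (KO minus WT) ranged from 0.78 for Pvalb to 1.92 for Cldn16 with a median of 1.34, beside a median of -0.01 over all tested genes, and the ratio of group means ran from 1.57 to 2.97. In build GRCm38, Fxyd2 lies on chromosome 9 (45399709 to 45410278), Cldn10 on chromosome 14 (118787871 to 118874525), Aqp3 on chromosome 4 (41092724 to 41098183), Fxyd4 on chromosome 6 (117933558 to 117937714) and Scnn1b on chromosome 7 (121865038 to 121918728). At an unadjusted p below 0.05 there were 24 members, against 39.9% of all tested genes in either direction. In 10 members every KO library lay above every WT library, against 23.2% of tested genes.

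**Figure D1:**
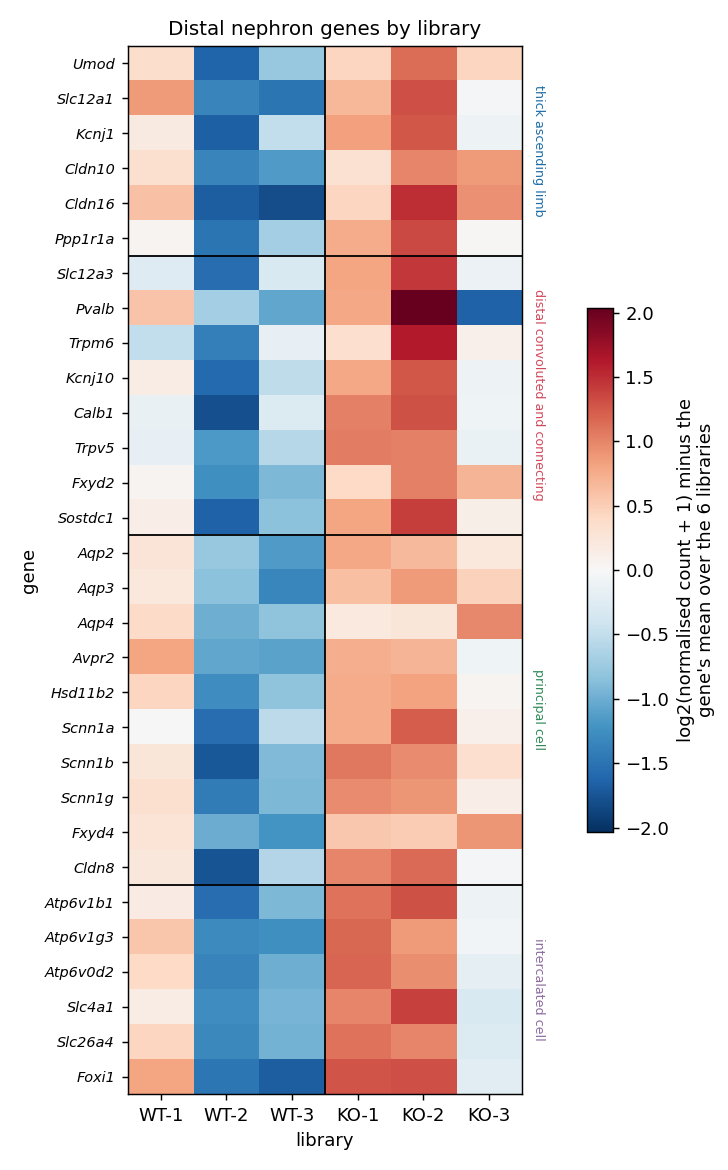
Heat map of the 30 members (rows, by segment) in the 6 libraries (columns), coloured by log2(normalised count + 1) minus the mean of that gene over the 6 libraries. WT-2 and WT-3 are low in most rows, KO-1 and KO-2 are high, and WT-1 and KO-3 lie between them.

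The 6 libraries did not fall into clean groups for these genes. WT-1 was the highest WT library for 29 of the 30 members (37.1% of all tested genes) and lay above KO-3 for 17 of them (49.6% of all tested genes). KO-3 was the lowest KO library for 24 members and KO-2 the highest for 20, where 37% and 36.5% of all tested genes did the same. Summed over the 30 members, normalised counts came to 54964, 17547 and 28754 in WT-1 to WT-3 and to 74440, 109350 and 58820 in KO-1 to KO-3, so the lowest KO sum, in KO-3, was just above the WT-1 sum. The member genes held 0.148% to 0.448% of the reads of a WT library and 0.437% to 0.797% of those of a KO library, counted without 10 genes described below. Without WT-1, 28 members passed the test, all but Pvalb and Trpm6, when 18.6% of all tested genes rose. Leaving out WT-2, WT-3, KO-2 or KO-3 in turn, no member passed in limma, with 10, 14, 11 and 27 members at an unadjusted p below 0.05, and without KO-1 only Fxyd2 did. Over all 13946 tested genes, 1, 0, 2 and 2 rose in those fits, and 1281 rose without KO-1. At an unadjusted p below 0.05 there were 3939, 4048, 4021 and 4924 genes in either direction. The loss of adjusted calls was therefore not particular to the members.

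The libraries held 11886828 to 20552984 recovered reads. A group of 10 genes, each abundant in 1 library and at least 30 times lower elsewhere, took 17.4% to 32.4% of the reads in the WT libraries and in KO-1, and at most 0.241% in KO-2 and KO-3, and no member was among them. The targeted gene Parva had 6585, 7520 and 7890 normalised counts in WT-1 to WT-3 and 2288, 2338 and 1942 in KO-1 to KO-3. Its log2 difference was -1.74 (SE 0.12, limma adjusted p = 0.0106), so each library matched its label. That call was lost without WT-2 (limma adjusted p = 0.0793) or without WT-3 (limma adjusted p = 0.0533), with log2 differences of -1.72 and -1.69, and adjusted p-values over all the alternatives ran from 9.8e-33 to 0.481. The podocyte marker Nphs1 (19510 normalised counts in WT and 15809 in KO, mean of 3 each) identified glomerular tissue in both groups. Of marker lists of other cells, 22 of 24 proximal tubule genes rose, while 4 of 10 podocyte, 9 of 12 endothelial and 8 of 9 mesangial genes fell. Of 8 markers of parietal epithelial cells, which line Bowman's capsule, 4 rose and 1 fell, with a median log2 difference of 1.09. In such bulk RNA, more cells of a type and more RNA per cell cannot be told apart.

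Thick ascending limb genes had a median log2 difference of 1.38, with 1 of 6 members, Cldn10, past the test, where 13.5% of all tested genes rose. Umod, which encodes uromodulin, the most abundant protein of normal urine, had 17490, 4425 and 8022 normalised counts in the WT libraries and 18454, 30126 and 18548 in the KO libraries. The groups did not overlap, but WT-1 reached 17490 against 18454 in the lowest KO library, and the log2 difference of 1.35 (SE 0.47, limma adjusted p = 0.0781) did not pass. Slc12a1, the furosemide-sensitive sodium, potassium and chloride cotransporter NKCC2, had 3914, 840 and 763 in WT and 3439, 5332 and 2092 in KO, with WT-1 above both KO-1 and KO-3. Its log2 difference was 1.31 (SE 0.64, limma adjusted p = 0.168).

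Cldn10 had 1221, 386 and 441 normalised counts in WT and 1208 (KO-1), 1960 and 1788 in KO. WT-1 was above KO-1, so the groups overlapped, and the log2 difference was 1.45 (SE 0.43, limma adjusted p = 0.0491). KO-1 was its lowest KO library. The counts are per gene, so transcript forms of Cldn10 were not told apart, and a proximal tubule part in its value was not tested. Cldn16, which forms the paracellular path for magnesium and calcium, was at 56.5, 10.9 and 9.88 in WT and at 50.5, 107 and 71.4 in KO. It showed the widest difference of the members on the log2 scale, 1.92, with a wide error (SE 0.65, limma adjusted p = 0.0720) and with WT-1 above KO-1. Kcnj1, the apical potassium channel ROMK that is also present in later segments, and Ppp1r1a, an inhibitor of protein phosphatase 1, were 2.38 and 2.59 times as high in KO as in WT by group means (limma adjusted p = 0.0960 and 0.0567), and their groups overlapped.

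Distal convoluted and connecting tubule genes had a median log2 difference of 1.39, and 1 of 8, Fxyd2, passed the test, where 13.5% of all tested genes rose. Slc12a3, the thiazide-sensitive cotransporter NCC that defines the segment, had 4522, 1858 and 4373 normalised counts in WT and 9515, 14640 and 4991 in KO. Every KO library lay above every WT library, although KO-3 exceeded WT-1 only narrowly, and the log2 difference was 1.41 (SE 0.46, limma adjusted p = 0.0659). Calb1, the calcium-buffering protein calbindin of the connecting tubule, gave 3757, 1201 and 3420 in WT and 8518, 10182 and 3899 in KO. Its log2 difference was 1.48 (SE 0.51, limma adjusted p = 0.0733), again without overlap and with KO-3 close to WT-1.

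Fxyd2 had 11032, 4445 and 5599 normalised counts in WT and 13999, 21453 and 17040 in KO. It was the member with the lowest adjusted p (log2 difference 1.41, SE 0.34, limma adjusted p = 0.0325) and is expressed along other nephron segments, including the proximal tubule, whose markers were also higher in KO. Here KO-1, not KO-3, was the lowest KO library, as in 23 of the 24 proximal tubule markers. The same held for 5 of the 30 members, namely Umod, Cldn10, Cldn16, Fxyd2 and Aqp4, with 3 of them in the thick limb. The proximal tubule's part in the Fxyd2 value was not tested.

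Pvalb, parvalbumin of the early distal convoluted tubule, departed from its neighbours. It had 1695, 695 and 541 normalised counts in WT and 1946, 4631 and 359 in KO, so KO-3 was below every WT library and KO-2 was 12.9 times KO-3. The log2 difference of 0.78 had an SE of 0.88 (limma adjusted p = 0.542), and without KO-2 it was -0.04. Trpm6, the apical magnesium channel, had 127, 68.3 and 160.5 in WT and 230, 557 and 195 in KO, with no overlap (log2 difference 1.38, limma adjusted p = 0.0654). Trpv5, the apical calcium channel, had 56.5, 27.7 and 42.0 in WT and 132, 130 and 57.8 in KO, where KO-3 stood just above WT-1 (log2 difference 1.28, limma adjusted p = 0.0551). Kcnj10, a basolateral potassium channel, and Sostdc1, a secreted BMP and Wnt antagonist, were 2.36 and 2.77 times as high by group means and overlapped between groups (limma adjusted p = 0.0935 and 0.0552).

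**Figure D2:**
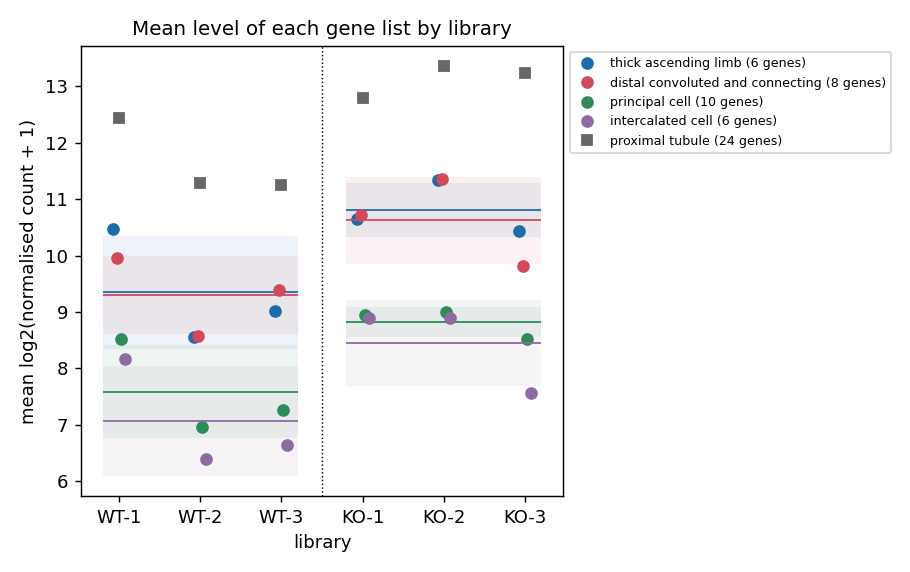
Mean log2(normalised count + 1) of the members of each segment in each library, 1 circle per segment and library, with a line at the group mean, a band of 1 SD (n = 3) and squares for 24 proximal tubule markers. Thick limb genes run from 8.56 to 10.47 in WT and from 10.43 to 11.34 in KO, and in each segment WT-1 is the highest WT library.

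Principal cell genes had a median log2 difference of 1.30, and 3 of 10 passed the test, where 13.5% of all tested genes rose. Among the water channels, Aqp3 had 645, 312 and 222 normalised counts in WT and 850, 1021 and 770 in KO. The groups were separate, with a log2 difference of 1.30 (SE 0.36, limma adjusted p = 0.0415). Aqp2, the vasopressin-regulated apical water channel, had 890, 432 and 333 in WT and 1275, 1163 and 862 in KO, where WT-1 was just above KO-3 (log2 difference 1.10, SE 0.35, limma adjusted p = 0.0581). Aqp4, the other basolateral water channel, was low, at 53.2, 19.8 and 22.2 in WT and 46.1, 47.6 and 80.5 in KO, and differed by 0.94 on the log2 scale (SE 0.42, limma adjusted p = 0.140). It was 1 of 2 members, with Fxyd4, in which KO-3 was the highest KO library. Avpr2, the vasopressin V2 receptor that places Aqp2 in the membrane, had 172, 46.5 and 45.3 in WT and 165, 158 and 91.9 in KO. WT-1 was its highest library of all 6, and the log2 difference of 0.90 (SE 0.52) did not pass (limma adjusted p = 0.238).

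The 3 subunits of the epithelial sodium channel were all higher in mean, and only the β subunit passed. Scnn1b had 318, 81.2 and 144 normalised counts in WT and 567, 524 and 342 in KO, without overlap (log2 difference 1.58, SE 0.46, limma adjusted p = 0.0483). Scnn1a, the α subunit, had 576, 195 and 397 in WT and 975, 1356 and 617 in KO, also without overlap, and missed the threshold (log2 difference 1.40, SE 0.42, limma adjusted p = 0.0538). Scnn1g, the γ subunit, had 289, 85.1 and 122 in WT and 447, 427 and 253 in KO, where WT-1 exceeded KO-3 (log2 difference 1.33, SE 0.44, limma adjusted p = 0.0684). Fxyd4 had 187, 76.2 and 65.8 in WT and 227, 222 and 288 in KO, a separate pair of groups (log2 difference 1.31, SE 0.37, limma adjusted p = 0.0463). Hsd11b2, the enzyme that keeps glucocorticoids off the mineralocorticoid receptor, was 1.93 times as high by group means (limma adjusted p = 0.101), and Cldn8, a tight junction protein of the collecting duct, 2.44 times (limma adjusted p = 0.0852). Both overlapped between groups.

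Intercalated cell genes had a median log2 difference of 1.35, and 0 of 6 passed in limma, with 4 of 6 at an unadjusted p below 0.05, while DESeq2 called 2 higher (Atp6v1b1 and Slc4a1) and edgeR 0. Over all tested genes 13.5% rose in limma, 16.6% in DESeq2 and 12.6% in edgeR. In all 6 genes KO-3 was the lowest KO library and lay below WT-1, so no gene had separate groups. Atp6v1b1, the B1 subunit of the proton ATPase, had 543, 164 and 257 normalised counts in WT and 1038, 1192 and 449 in KO (log2 difference 1.53, SE 0.50, limma adjusted p = 0.0649). Slc26a4, the chloride and bicarbonate exchanger pendrin of the base-secreting type, had 466, 139 and 176 in WT and 745, 690 and 283 in KO (log2 difference 1.22, SE 0.52, limma adjusted p = 0.126). Foxi1, the forkhead factor required for intercalated cells, had 185, 37.6 and 32.1 in WT and 257, 262 and 89.6 in KO (log2 difference 1.56, SE 0.71, limma adjusted p = 0.145). WT-1 was 5.75 times WT-3 for this gene. The proton ATPase subunits Atp6v1g3 and Atp6v0d2 were 2.2 and 2.31 times as high by group means (limma adjusted p = 0.112 and 0.109).

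Slc4a1, the anion exchanger AE1 of acid-secreting cells, had 149, 55.4 and 69.1 normalised counts in WT and 268, 356 and 108 in KO (log2 difference 1.38, SE 0.51, limma adjusted p = 0.0901). The same gene encodes band 3 of red cells. The summed level of the erythroid list ran from 877 to 1113 in WT and from 568 to 692 in KO. Of its 9 listed genes only 3 were tested, and 2 of these fell. The red cell part in the Slc4a1 value was not tested. For the urinary tract lining, 0 of 5 urothelial markers reached the mean of 10, and the sum of all 5 was at most 19.5 normalised counts in a library.

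**Figure D3:**
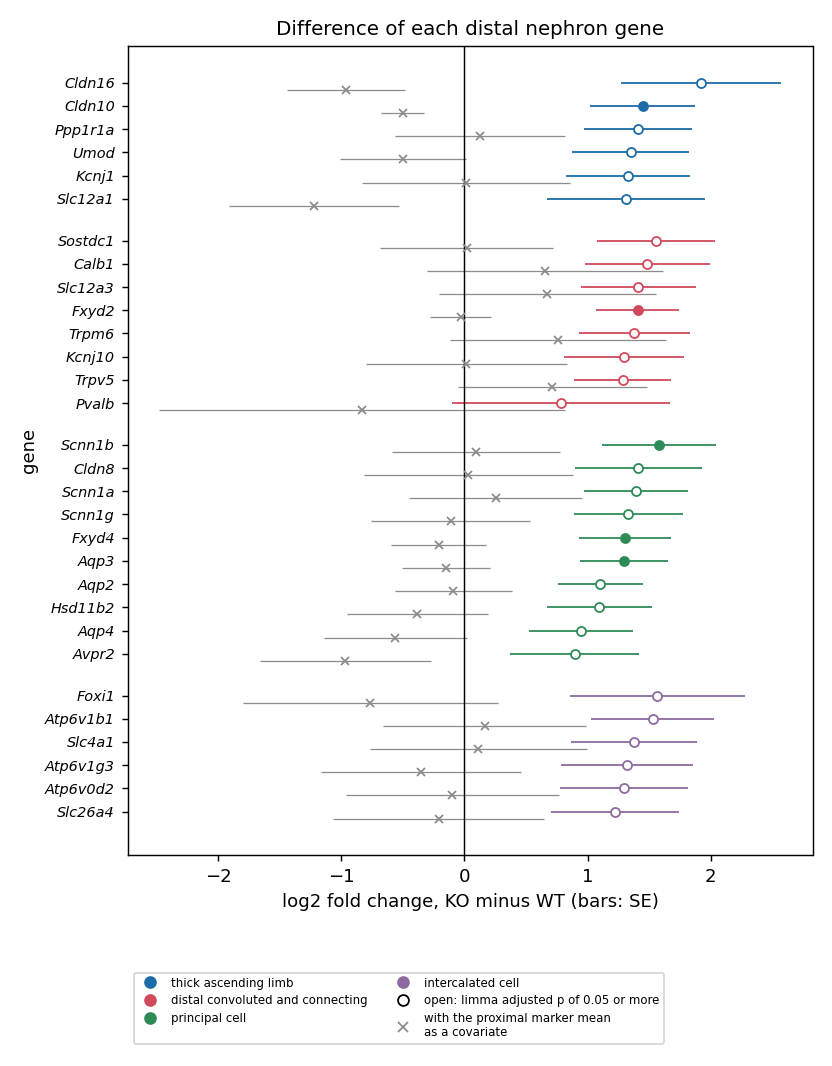
Log2 difference (KO minus WT) of each member with its standard error, by segment, with filled circles for the 5 members past an adjusted p of 0.05 and grey crosses for the fit that adjusts for the proximal tubule level. All 30 circles lie above 0, whereas 17 of the crosses lie below it. The circles run from 0.78 for Pvalb to 1.92 for Cldn16, and 4 of the 5 filled circles have error bars of at most 0.43.

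Proximal tubule markers moved in the same direction and were set beside the members in each library. The mean log2 level of 24 proximal tubule genes was 12.43, 11.28 and 11.24 in WT and 12.80, 13.36 and 13.23 in KO, a difference of 1.48, against 1.33 for the 30 members. The level of the members minus that of the proximal tubule markers was -3.21, -3.68 and -3.19 in WT and -3.05, -3.28 and -4.18 in KO, overlapping groups that differed by -0.14. By segment this relative level differed by -0.02 for the thick limb, -0.15 for the distal convoluted and connecting tubule, -0.24 for principal cells and -0.09 for intercalated cells, each smaller than the SD of 3 libraries in either group except for principal cells, where the WT SD was 0.22. KO-3 had the lowest relative level of the 6 libraries in each of the 4 segments, at -5.67 for intercalated cells. With the proximal tubule level of each library as a covariate in the fit, the member median was -0.09. In that fit 17 of 30 members turned to a negative sign, and no member passed in limma. The 1 member at an unadjusted p below 0.05 was Cldn10, which was then lower in KO (log2 difference -0.50, limma unadjusted p = 0.0229). The proximal tubule level itself did not overlap between WT and KO, so it and the genotype cannot be told apart in that fit.

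**Figure D4:**
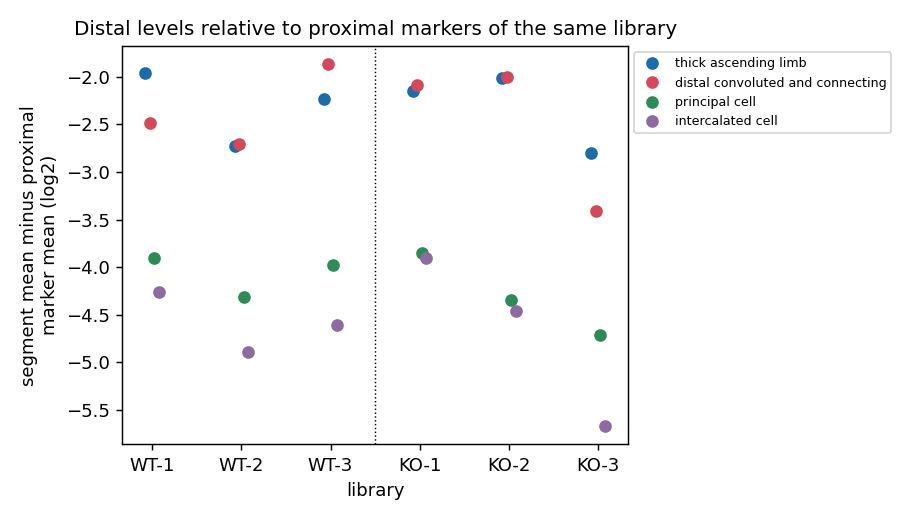
Mean log2 level of each segment's members minus the mean log2 level of 24 proximal tubule markers, per library. Values overlap between WT and KO in all 4 segments, and KO-3 is the lowest library in each, for example -3.42 in the distal convoluted and connecting tubule.

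Ratios between members within a library, chosen after their values were seen and given without a test, show how far members moved together. Calb1 was 0.646 to 0.831 times Slc12a3 in WT and 0.696 to 0.895 times in KO, a narrow range beside the wide swings of both genes. Slc12a1 against Slc12a3, thick limb against distal convoluted tubule, was 0.865, 0.452 and 0.174 in WT but 0.361, 0.364 and 0.419 in KO, so the ratio spread wider among the WT libraries. Pvalb against Slc12a3 was 0.375, 0.374 and 0.124 in WT and 0.204, 0.316 and 0.0720 in KO, and was low in WT-3 and KO-3, 1 library of each group. Pendrin against AE1 was 3.13, 2.5 and 2.55 in WT and 2.78, 1.94 and 2.63 in KO. The ratio of Scnn1b to Scnn1g was 1.10, 0.953 and 1.18 in WT and 1.27, 1.23 and 1.35 in KO, and that of Cldn16 to Slc12a1 was 0.0129 to 0.0144 in WT and 0.0147 to 0.0341 in KO. These last 2 ratios were the only ones of 15 computed in which every KO library lay above every WT library. For Cldn16 to Slc12a1 the gap was narrow, 0.0147 in KO-1 against 0.0144 in WT-1. It rests on 57 and 52 Cldn16 reads, and WT-2 and WT-3 held only 11 and 12.

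**Figure D5:**
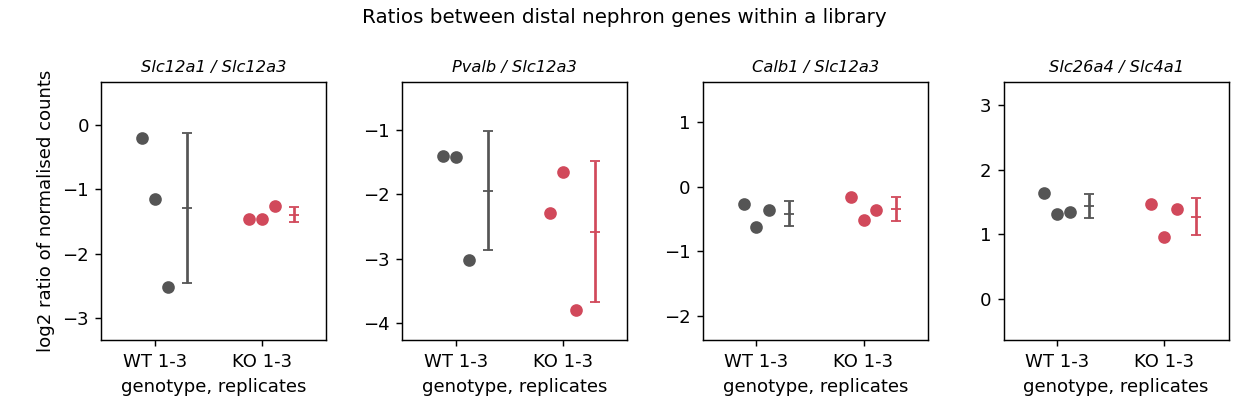
Log2 ratios of normalised counts for 4 pairs of members, 1 point per library, with bars for the mean and SD of 3 libraries per genotype. The Slc12a1 to Slc12a3 ratio spreads from -2.52 to -0.21 among the WT libraries and from -1.47 to -1.25 among the KO libraries.

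Levels were compared between genes per kilobase of the principal annotated transcript. Fxyd2 was the highest in mean normalised counts per kilobase (11116 in WT, 27686 in KO), followed by Umod (3841 and 8613), Slc12a3 (1086.5 and 2945), Pvalb (1012 and 2396) and Calb1 (661 and 1784). Aqp4 was the lowest (6.28 and 11.5), below Trpv5 (13.0 and 32.9). The ranks of the 9 highest members were the same in both groups. Slc12a3 and Pvalb, the neighbours at ranks 3 and 4, differed by less than the spread among the WT libraries of either gene.

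Of 54 further genes of the same segments, 51 were tested. In limma 13 of these rose and 3 fell, with a median log2 difference of 1.19. Over all tested genes 13.5% rose and 8.58% fell. In the thick limb 0 of 10 passed in limma, with 5 at an unadjusted p below 0.05, against 39.9% of all tested genes. Egf, the precursor of epidermal growth factor, was among its genes of highest mean and had a log2 difference of 0.94 (limma adjusted p = 0.177). In the distal convoluted tubule 3 of 12 rose, the magnesium handling protein gene Cnnm2 (log2 difference 1.19, limma adjusted p = 0.0326), the transcription factor gene Sall3 (1.78, limma adjusted p = 0.0365) and Wnk4, a kinase upstream of Slc12a3 (1.48, limma adjusted p = 0.0405). Oxsr1, a widely expressed kinase of the same pathway, fell by 0.30 on the log2 scale (limma adjusted p = 0.0415).

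In principal cells 5 of 16 further genes rose and 2 fell, beside 13.5% and 8.58% of all tested genes. The channel-activating protease gene Prss8 had 1236, 633 and 515 normalised counts in WT and 1538, 2283 and 2674 in KO (log2 difference 1.51, limma adjusted p = 0.0304). Nedd4l, the ubiquitin ligase that removes the sodium channel from the membrane, rose by 0.67 (limma adjusted p = 0.0314) and the claudin gene Cldn7 by 1.65 (limma adjusted p = 0.0318). Cldn4 also rose. Gata2, a transcription factor that endothelial cells also use, fell by 0.40 (limma adjusted p = 0.0325) beside endothelial markers of which 9 of 12 fell, and the endothelial part in it was not tested. Sgk1, an aldosterone-induced kinase found in many cells, fell too, by 0.40.

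Among intercalated cell genes 5 of 13 further genes rose, beside 13.5% of all tested genes, and none fell in limma at the adjusted or the unadjusted threshold. The carbonic anhydrase gene Car12 had 1339, 466 and 547 normalised counts in WT and 2152, 2502 and 2275 in KO (log2 difference 1.72, limma adjusted p = 0.0287), with every KO library above every WT library. Atp6v0a4, a membrane subunit of the proton ATPase, rose by 1.77 (limma adjusted p = 0.0299), the cytosolic carbonic anhydrase gene Car2 by 1.57 (limma adjusted p = 0.0390) and Slc4a9, a bicarbonate transporter gene of the base-secreting type, by 1.51 (limma adjusted p = 0.0430). Kit also rose. Car2, Car12 and Atp6v0a4 are also known from other tubule segments. Cldn4, Sgk1 and Kit were outside the naming rule and were named after their values were seen.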

How the data were processed

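Glomerular RNA of 3 KO and 3 WT mice had been sequenced with a directional library kit, and the sample titles gave each library's genotype and replicate number. The deposited table holds a signal per library and gene, normalised counts that the authors made by dividing reads by a size factor, per the file headers and the values. The submitters' processing notes name HISAT2 2.1, an aligner, and build mm10, and beside it DESeq2 2.11.40.6 (a wrapper's numbering), featureCounts 1.6.4, bcl2fastq 2.19 and cutadapt 1.16.5. Whether counting used the strand is not given in the sources used here, nor is the annotation release, so reads of overlapping genes cannot be told apart.

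After division by 1 constant for each library, 100% of values were whole at a tolerance of 0.01, which gave 11886828 to 20552984 recovered reads per library. The identifiers of 25275 of the 27179 features were named. Genes with a mean of at least 10 (13946) were compared on log2(normalised count + 1) with limma 3.58.1 in R 4.3.3, with a variance trend, genotype as the only term, and two-sided Benjamini-Hochberg adjusted p-values at 0.05. Fold changes on this scale understate those of low genes. The exact permutation p for 3 against 3 cannot go below 0.1. Replicate numbers were not taken as pairing the samples. Alternatives were DESeq2 1.42.0 and edgeR 4.0.16 run on those recovered reads, other scalings, pseudocounts and filters, a proximal tubule covariate and leaving out each library. The fits were tested on simulated data. All 30 members and Parva were named, and of the further lists, per segment, up to 4 genes past the threshold with the smallest adjusted p, or the 2 of highest mean where fewer than 2 passed. Some genes of the lists are counted but not reported here by name. Members, lists and tests were chosen with earlier results of these data known.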

Additional observations from a re-analysis of the deposited data

How the results depend on the processing

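All 30 members kept a higher KO level under both other pseudocounts, TMM and upper quartile scaling, edgeR, DESeq2, limma without the trend, both other filters and without the genes high in a single library, the last chosen after seeing the data. The number of members that rose was 5, against 3 with TMM, 2 with edgeR (Fxyd2 and Trpv5), 18 with DESeq2 and 0 without the variance trend (19 at an unadjusted p below 0.05). Over all tested genes 13.5% rose in the main fit, 12.6% with edgeR and 16.6% with DESeq2. Where the member count lies beside that share therefore depends on the tool. With endothelial and mesangial markers set equal, the median of all genes shifted to 0.69, 9346 genes rose and 38 fell, as did 29 members and 46 against 0 further genes, the principal cell median was 2.001, and Oxsr1 (0.41) and Gata2 (0.30) turned positive. Further genes that rose numbered 13, against 23 with DESeq2 and 0 without the trend, and those that fell 3, against 1 with no filter and 0 without the trend. Over all genes, 1 rose and 0 fell without the trend (5305 at an unadjusted p below 0.05), and Parva then had a log2 difference of -1.74 (limma adjusted p = 0.0537).

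With the proximal tubule mean as covariate, 0 genes rose and 0 fell among members, further genes and all genes (1, 1 and 411 at an unadjusted p below 0.05 in limma), and Parva differed by -1.48 (limma adjusted p = 0.481). The 1 member, Cldn10, and the 1 further gene at that unadjusted threshold were both lower in KO. Segment medians were then -0.50 for the thick limb, 0.34 for the distal convoluted tubule, -0.13 for principal and -0.15 for intercalated cells. The log2 differences that turned negative were Umod -0.50, Slc12a1 -1.22, Cldn10 -0.50, Cldn16 -0.96, Pvalb -0.83, Fxyd2 -0.031, Aqp2 -0.089, Aqp3 -0.15, Aqp4 -0.56, Avpr2 -0.97, Hsd11b2 -0.38, Scnn1g -0.11, Fxyd4 -0.21, Atp6v1g3 -0.35, Atp6v0d2 -0.10, Slc26a4 -0.21, Foxi1 -0.76 and Car2 -0.23.

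With 1 library left out, members that rose ranged from 0 to 28, further genes that rose from 0 to 33 and that fell from 0 to 3, and all genes that rose from 0 to 2599 and that fell from 0 to 1695. Segment medians ranged from 0.99 to 1.92 (thick limb), 1.01 to 1.74 (distal convoluted), 0.96 to 1.74 (principal) and 1.05 to 1.88 (intercalated), and Parva from -1.82 to -1.66. Of the members, Pvalb changed sign, from 1.80 without KO-3 to -0.040 without KO-2. The replicate block left 0 members, 0 further genes and 0 of all genes past the threshold in either direction in limma (28, 35 and 4284 at an unadjusted p below 0.05), with Parva at -1.74 (limma adjusted p = 0.0868). Deviations of same-numbered libraries correlated at -0.226, -0.191 and -0.0129, and those of WT-1 and KO-2 at 0.339. With 3 libraries per group these values cannot show whether the numbers mark pairs. The causes of these changes were not tested. Counting error covers reads only, and the smallest count of a member in 1 library was 11 reads, for Cldn16.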
